A study of Mus musculus with 9 samples.

Results

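The genes described here are the members of 3 developmental transcription factor families, Hox, Dlx and Pax, together with Wt1, read from expression arrays of R6/2 and wild-type mouse striatum. They were chosen by symbol, as every gene of these names with a probe set annotated to it alone, and each was read from its brightest probe set over the 9 arrays. This gave 51 of the 18193 genes tested, namely 33 Hox genes and 3 Hox antisense or opposite-strand transcripts, 6 Dlx genes, 8 Pax genes and Wt1.

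The 5 R6/2 mice and the 4 wild-type mice were females on a mixed C57Bl/6 / CBA background at 12 weeks of age. The R6/2 line carries a transgene with exon 1 of the human huntingtin gene and an expanded CAG repeat under the human promoter, in addition to its own mouse huntingtin genes, and is used as a model of Huntington disease. Mice R62_95, R62_105, R62_107 and R62_109 were 83 days old, and mouse R62_86 and the wild-type mice wildtype_46, wildtype_47, wildtype_49 and wildtype_66 were 85 days old. Values of single mice are given in the order R62_86, R62_95, R62_105, R62_107, R62_109 for R6/2 and wildtype_46, wildtype_47, wildtype_49, wildtype_66 for wild-type. Each mouse was 1 array of dissected striatum, and values are log2 expression after RMA, the authors' normalization, so a difference of 1 is a doubling.

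Hox genes lie in 4 clusters, named a to d, and encode homeodomain transcription factors that give segments of the embryo and of the hindbrain and spinal cord their identity. The forebrain forms outside their domain, and in the adult mouse forebrain the clusters are held largely silent by Polycomb group complexes. Dlx genes encode related homeodomain factors that drive the formation of GABA neurons in the embryonic ventral forebrain, from which the striatum arises. Dlx1 and Dlx2 lie side by side in the genome, and Dlx5 and Dlx6 form a second such pair. Pax genes encode paired-domain factors of many organs and of dorsal and posterior neural tube, and Wt1 encodes a zinc finger factor best known in kidney and gonad.

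The arrays had medians of 5.37 to 5.45, and pairs of arrays correlated at 0.979 to 0.995 over all probe sets. Of 12 listed markers of spiny projection neurons, the main cells of the striatum, 10 were measured, and all 10 lay above the 75th percentile of gene levels, 8.30. All 10 fell in R6/2 mice, with a mean log2 level of 9.85 to 10.67 in R6/2 arrays and 11.69 to 11.97 in wild-type arrays. Arrays also differed in listed markers of neighbouring tissue. Whether these transcripts came from that tissue or from the striatum itself was not tested. The cortex projection neuron markers averaged 6.76 to 7.57 in R6/2 and 6.06 to 6.97 in wild-type arrays, and the choroid plexus markers 5.06 to 6.56 in R6/2 and 5.48 to 7.96 in wild-type arrays. The cortex markers did not all move alike. By the test described below 4 of the 10 measured rose and 1 fell, against 9.28% and 7.57% of all genes. The 1 that fell was Lamp5, the brightest of them, by 0.55. Arrays of mice wildtype_47 and wildtype_66 and of mouse R62_107 were the richest in choroid plexus transcripts.

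Across the families, 2 of the 51 genes changed between the genotypes. Dlx1 and Wt1 were higher in R6/2 mice, and 0 genes were lower (limma, adjusted p under 0.05 over all genes). Of all 18193 genes, 9.28% were higher and 7.57% were lower by the same rule, 16.9% in all. Of the 9096 genes below the median level, to which 49 of the 51 belonged, 2.86% were higher and 4.5% lower, 7.35% in all. Of the 9096 genes above it, where Dlx1 and Dlx5 lay, 15.7% were higher and 10.7% lower, 26.4% in all. At an unadjusted p under 0.05 the families had 6 genes of 51, against 31.2% of all genes and 1739 of the 9096 genes below the median level. In 0 members did every R6/2 mouse lie above every wild-type mouse, against 9.18% of all genes, and in 2 members, Dlx3 and Dlx6, every R6/2 mouse lay below, against 8.09%. Of the 9096 genes below the median level, 224 lay above in every R6/2 mouse and 475 below. The median difference was -0.05 over the 51 genes, -0.02 over all genes and -0.05 over the genes below the median level.

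The promoters of Dlx1, which changed, and of its neighbour Dlx2 are shown because both are rich in CG dinucleotides, a feature of promoters that Polycomb complexes can silence. The 250 bases before each start are given 5′ to 3′ from RefSeq on build GRCm38.p6, with CG in capitals, for Dlx1 at chr2:71529195-71529444 on the plus strand and for Dlx2 at chr2:71546755-71547004 on the minus strand.
Dlx1: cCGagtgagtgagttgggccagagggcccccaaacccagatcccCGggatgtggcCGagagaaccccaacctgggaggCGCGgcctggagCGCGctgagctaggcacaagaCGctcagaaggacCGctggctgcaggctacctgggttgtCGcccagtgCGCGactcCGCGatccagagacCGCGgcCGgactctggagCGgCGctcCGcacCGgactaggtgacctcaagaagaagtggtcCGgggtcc
Dlx2: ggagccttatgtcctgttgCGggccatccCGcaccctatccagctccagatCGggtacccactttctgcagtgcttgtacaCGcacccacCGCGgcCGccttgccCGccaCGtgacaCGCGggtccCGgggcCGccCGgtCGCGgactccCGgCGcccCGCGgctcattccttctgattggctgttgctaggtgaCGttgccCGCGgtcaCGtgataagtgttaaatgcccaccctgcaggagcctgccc
The Dlx1 stretch holds 22 CG dinucleotides and the Dlx2 stretch 24. Promoter entries were found for 29 of the 51 genes, as 32 windows of 300 bases that end 50 bases after the start. These windows held a median of 16.5 CG dinucleotides, with 4 as the lowest and 45 as the highest count, against a median of 7 over 32851 promoters of all genes. The window of Dlx1 held 27 and that of Dlx2 29, while the highest count was that of Hoxa13, which did not pass the test. A link between CG content and the differences was not tested. CG reads the same on both strands, as does TAATTA, a core motif bound by many homeodomain proteins. TAATTA was found in 6.25% of the members' windows, both of them of Hoxd11, and in 5.29% of all promoters. It was in neither window of Dlx1 or Dlx2.

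Dlx1 rose in R6/2 striatum. Its log2 values were 6.64, 6.86, 6.85, 7.15 and 6.89 in the R6/2 mice, against 6.33, 6.80, 6.14 and 6.49 in the wild-type mice. All 5 R6/2 mice lay above the wild-type mean, and only mouse wildtype_47 overlapped with them, above mouse R62_86. The difference was 0.44 ± 0.13 (SE, adjusted p 0.0450, limma), or 1.36 times the wild-type level with a 95% interval of 1.11 to 1.66. Its mean over the arrays, 6.68, was close to the median gene at 6.54.

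The call of Dlx1 stood close to the threshold. It ended when any 1 of 7 mice was left out, at adjusted p of 0.0698 to 0.103, and remained without mouse wildtype_47 (0.0156) or mouse R62_86 (0.0412). With the cortex marker score as a covariate the difference was 0.52 (adjusted p 0.249), with the choroid plexus score 0.64 (adjusted p 0.00491), and with age 0.20 (adjusted p 0.743), where mouse R62_86 alone stands for R6/2 at the wild-type age.

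Dlx2, which acts together with Dlx1 in making forebrain GABA neurons, did not pass. Its log2 values were 6.54, 6.82, 6.46, 6.58 and 6.37 in the R6/2 mice, against 6.46, 6.46, 5.88 and 6.36 in the wild-type mice. The groups overlapped, and mouse wildtype_49 lay far below the other wild-type mice. The difference was 0.26 ± 0.13 (SE, adjusted p 0.200, limma), with a 95% interval of -0.02 to 0.55, and it was 0.12 (adjusted p 0.425) without mouse wildtype_49.

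The second pair gave differences on the other side of 0. Dlx5 and Dlx6, later factors of the same neurons, did not pass either, but lay nearest to the threshold among the members that missed it. Dlx6 read 6.13, 5.45, 5.77, 6.02 and 5.80 in the R6/2 mice, against 6.20, 6.21, 6.20 and 6.19 in the wild-type mice. The groups did not overlap, with an SD of 0.26 in R6/2 mice and 0.009 in wild-type mice. The difference was -0.36 ± 0.12 (SE, adjusted p 0.0562, limma), or 0.777 times the wild-type level. Dlx5 read 7.30, 7.06, 6.92, 7.50 and 7.21 in the R6/2 mice, against 7.34, 7.57, 7.53 and 7.68 in the wild-type mice. Only mouse R62_107 reached into the wild-type range. The difference was -0.33 ± 0.11 (SE, adjusted p 0.0720, limma).

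Small changes of setting moved both genes across the threshold. Dlx6 passed without mouse R62_86 (adjusted p 0.0275) or mouse R62_107 (0.0494), and Dlx5 without mouse R62_107 (0.0262). After quantile normalization of the deposited values Dlx5 (-0.38, adjusted p 0.0475) and Dlx6 (-0.40, adjusted p 0.0380) passed and Dlx1 did not (0.40, adjusted p 0.0635). With the cortex marker score as a covariate Dlx5 was -0.07 (adjusted p 0.854) and Dlx6 was -0.36 (adjusted p 0.350), and with age Dlx6 was -0.07 (adjusted p 0.909). The difference between the 2 pairs was not tested. Dlx1 and Dlx2 were positive and Dlx5 and Dlx6 negative in each setting in which they were measured.

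Dlx6os1, a noncoding RNA transcribed from the strand opposite Dlx6 and known in the mouse as Evf2, fell. Its log2 values were 6.69, 5.83, 6.21, 6.59 and 6.20 in the R6/2 mice, against 7.12, 7.03, 7.33 and 7.05 in the wild-type mice. The groups did not overlap. The difference was -0.83 ± 0.16 (SE, adjusted p 0.00543, limma). Mouse R62_95 was the lowest mouse for Dlx6os1 and for Dlx6, and mouse R62_86 the highest R6/2 mouse for both.

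**Figure D1:**
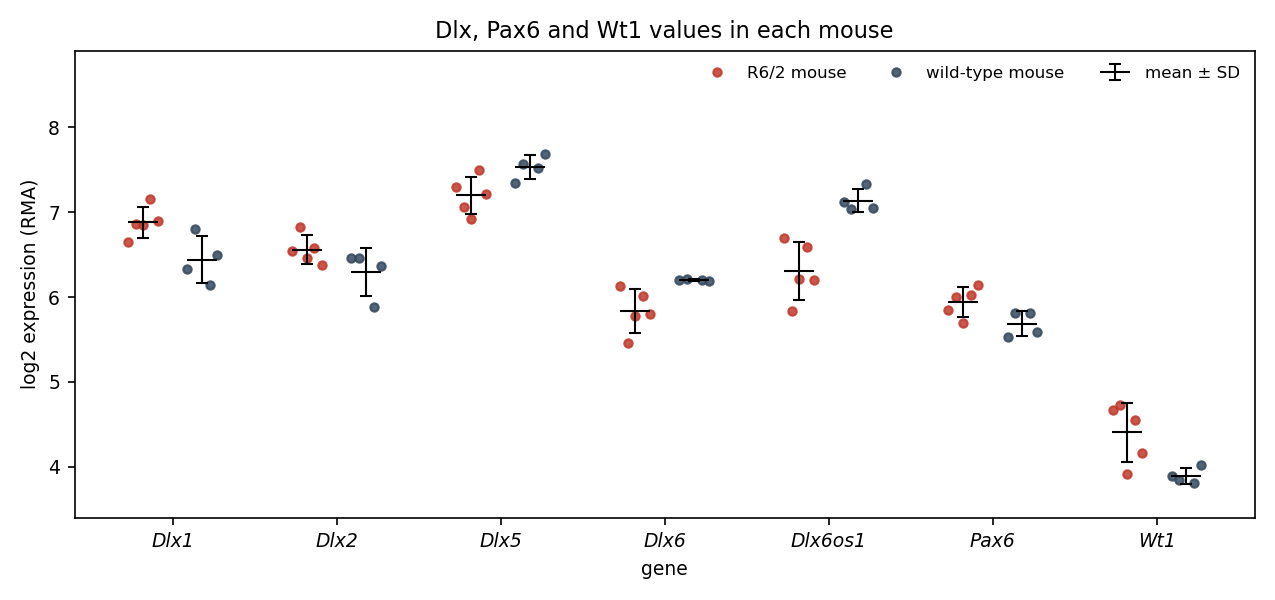
Log2 expression (vertical axis) of Dlx1, Dlx2, Dlx5, Dlx6, the Dlx6 antisense transcript Dlx6os1, Pax6 and Wt1, with 1 point per mouse, R6/2 left of wild-type, and bars for the mean ± SD (n = 5 and 4). Dlx6 and Dlx6os1 do not overlap between genotypes, the 4 wild-type values of Dlx6 coincide near 6.20, and Wt1 spreads from 3.92 to 4.73 in R6/2 mice.

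Dlx3 and Dlx4, which are known from skin, placenta and bone rather than forebrain, were dim. Dlx3 averaged 4.53 ± 0.05 in R6/2 mice and 4.69 ± 0.14 in wild-type mice (SD, n = 5 and 4). Its groups did not overlap, with R6/2 mice at 4.44 to 4.58 and wild-type mice at 4.58 to 4.90, but the difference of -0.16 did not pass (adjusted p 0.162, limma). Dlx4 gave 0.06 ± 0.08 (SE, adjusted p 0.634, limma). Each has a second, dimmer probe set, at 0.02 for Dlx3 and -0.06 for Dlx4.

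Other transcription factors and GABA genes of the ventral forebrain included genes that fell. Of 17 measured genes on that list 6 fell and 0 rose, with a median difference of -0.27, where 10.7% of all genes above the median level fell and all but 5 of the 17 lay above it. The factors Bcl11b (-0.90 ± 0.13, SE, adjusted p 0.00114, limma) and Foxp1 (-0.70 ± 0.09, SE, adjusted p 0.000617) of spiny neurons were the members with the smallest p beside Dlx6os1. Bcl11b and Foxp1 stand on the spiny neuron list as well, and Lhx6 and Nkx2-1 on the interneuron list. Dlx genes are made in GABA interneurons and in migrating neuroblasts as well. Of 10 GABA interneuron markers 3 fell and 0 rose, and the list averaged 7.18 to 7.53 in R6/2 and 7.36 to 7.50 in wild-type arrays. Among all genes 7.57% fell and 9.28% rose. Of 9 markers of subventricular and olfactory neuroblasts 1 rose and 0 fell, counts near those shares. The 1 was Dcx, a microtubule protein of young neurons, at 0.61 ± 0.18 (SE, adjusted p 0.0442, limma). Over the 9 markers 3 differences were positive and 6 negative, with a median of -0.04. That list averaged 5.41 to 5.83 in R6/2 and 5.43 to 5.71 in wild-type arrays, with 7 of its 9 genes below the median level, the proliferation marker Mki67 among them. Their part in the Dlx values was not tested. In such bulk tissue, fewer cells of a type and less RNA per cell cannot be told apart.

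Wt1, a dim gene, rose in R6/2 striatum. Its log2 values were 4.67, 4.73, 3.92, 4.55 and 4.17 in the R6/2 mice, against 3.90, 3.85, 3.81 and 4.02 in the wild-type mice. The 4 wild-type mice lay close together, 4 R6/2 mice lay above all of them, and mouse R62_105 lay among them. The difference was 0.51 ± 0.15 (SE, adjusted p 0.0435, limma). It is given on the log2 scale only, with no fold, since the wild-type mean of 3.89 lay within the range of the olfactory receptor genes described below. The SD was 0.35 in R6/2 mice and 0.09 in wild-type mice, and that difference in spread was not tested.

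Wt1 stood as close to the threshold as Dlx1. Its call ended when any 1 of 7 mice was left out, at adjusted p of 0.0651 to 0.0996, and remained without mouse R62_105 (0.64, adjusted p 0.00864) or mouse R62_109 (0.57, adjusted p 0.0463). It also ended with a covariate, at 0.81 (adjusted p 0.0792) with the cortex marker score, 0.57 (adjusted p 0.0713) with the choroid plexus score and 0.78 (adjusted p 0.222) with age. With mice wildtype_47, wildtype_66 and R62_107 left out it was 0.52 (adjusted p 0.225). In a fit with each gene's own variance neither Wt1 (adjusted p 0.118) nor Dlx1 (adjusted p 0.115) passed. Wt1 has a single probe set, at 4.18 over all arrays. In the mouse Wt1 is also made in the mesothelium and in some mesenchymal cells. Of 10 meninges and fibroblast markers 0 rose and 0 fell, with 0 at an unadjusted p under 0.05. Among all genes 9.28% rose, 7.57% fell and 31.2% had an unadjusted p under 0.05. Of the 10 differences 9 were positive and 1 negative, with a median of 0.12, against -0.02 over all genes. These markers averaged 5.50 to 5.75 in R6/2 and 5.41 to 5.71 in wild-type arrays, and their part in the Wt1 value was not tested.

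No Hox gene passed the test. Of 36 Hox entries 0 were higher and 0 lower by limma, and 1 had an unadjusted p under 0.05. Their differences ran from -0.21 to 0.14, with a median of -0.04, and the groups overlapped in all 36. Among the 9096 genes below the median level, where all 36 lay, 2.86% were higher and 4.5% lower. Of these 9096 genes 1739 had an unadjusted p under 0.05. Every R6/2 mouse lay above every wild-type mouse in 224 of them and below in 475. For each of the 36 entries the 95% interval of the difference lay within 0.5 either way, that is, between 0.707 and 1.41 times the wild-type level, as it did for 77.7% of all genes, 85.9% of the genes below the median level, and all 39 olfactory receptor and all 38 keratin-associated protein genes described below. These intervals were set 1 gene at a time, with SEs of 0.05 to 0.11. Over all families 46 of 51 intervals lay within that band, and the exceptions were Dlx1, Dlx2, Dlx5, Dlx6 and Wt1.

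Most Hox probe sets were as dim as genes that the striatum is not known to use. The 39 measured olfactory receptor genes, whose products sense odours in the nose, had levels of 3.15 to 4.82 and a median of 3.61. Of the 36 Hox entries 28 lay at or below the brightest of these, and their median level was 3.77. The 38 genes of keratin-associated proteins of hair had a median of 3.52, but reached 7.04. All 36 Hox entries lay below the median gene. Near the floor of an array log2 differences are compressed, so the bounds hold for the measured signal. A change in a rare Hox transcript could have been missed. Dim genes could still be called, as 2.86% of genes below the median level were higher and 4.5% lower.

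**Figure D2:**
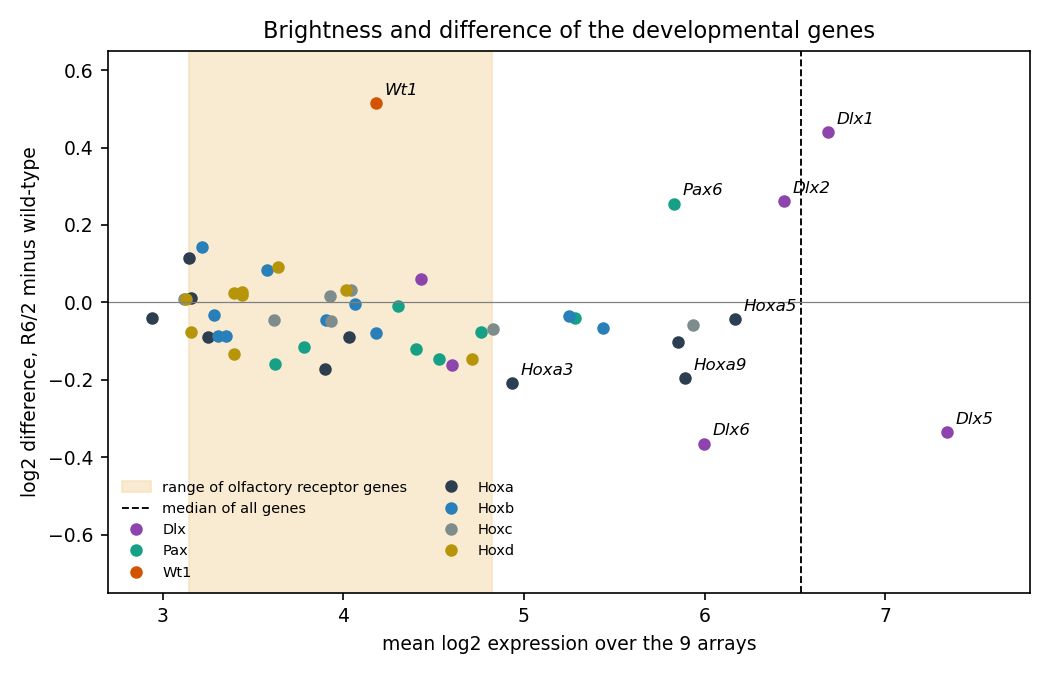
Mean log2 expression over the 9 arrays (horizontal axis) against the log2 difference of R6/2 minus wild-type (vertical axis), with 1 point per gene coloured by family, a band for the range of the olfactory receptor genes and a dashed line at the median of all genes. Most Hox points lie in or near the band and close to a difference of 0, while Dlx1 and Dlx5 lie right of the dashed line, on opposite sides of 0.

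The brightest Hox entries did not stand out by their differences. Hoxa5, at 6.17 over all arrays, read 6.17, 6.15, 6.20, 6.06 and 6.17 in the R6/2 mice, against 6.06, 6.06, 6.53 and 6.12 in the wild-type mice. The groups overlapped, mouse wildtype_49 was high, and the difference was -0.04 ± 0.10 (SE, adjusted p 0.798, limma). Hoxc9 gave -0.06 (adjusted p 0.612), Hoxa7 -0.10 (adjusted p 0.337) and the opposite-strand transcript Hoxb5os -0.07 (adjusted p 0.678). Hoxa9, a factor of the posterior axis and of blood precursors, read 5.66, 5.85, 5.98, 5.74 and 5.80 in the R6/2 mice, against 5.92, 5.96, 6.16 and 5.96 in the wild-type mice. Mouse R62_105 lay among the wild-type mice, and the difference was -0.20 ± 0.08 (SE, adjusted p 0.120, limma). A second probe set was much dimmer for both, at 3.49 for Hoxa5 and 3.38 for Hoxa9.

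The extremes of the Hox differences did not pass. Hoxa3, a factor of the hindbrain and pharyngeal arches, had the lowest, at -0.21 ± 0.09 (SE, adjusted p 0.162, limma), with 4.74 to 5.03 in R6/2 and 4.92 to 5.30 in wild-type mice. It has 4 probe sets, and the others gave -0.09, -0.12 and 0.10. Hoxa3 passed with the choroid plexus score as a covariate (-0.33, adjusted p 0.0433) and with housekeeping centring (-0.31, adjusted p 0.0484), where Hoxa9 passed as well (-0.30, adjusted p 0.0441). Hoxb5 had the highest, at 0.14 ± 0.08 (SE, adjusted p 0.249, limma), with 3.17 to 3.43 in R6/2 and 2.95 to 3.24 in wild-type mice. Hoxa10 followed at 0.11 (adjusted p 0.446), and its second probe set gave -0.12.

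The 4 clusters and the stretches along them had medians between -0.09 and 0.02. The median difference was -0.09 over 10 Hoxa entries, -0.04 over 10 Hoxb entries, -0.05 over 7 Hoxc entries and 0.02 over 9 Hoxd entries. Along the clusters the genes run from anterior paralogues, numbered from 1, to posterior ones, numbered up to 13. The median was -0.03 over 10 genes of paralogue groups 1 to 4, -0.04 over 9 genes of groups 5 to 8 and -0.05 over 14 genes of groups 9 to 13. Within these 3 stretches 3, 4 and 5 genes had positive differences.

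**Figure D3:**
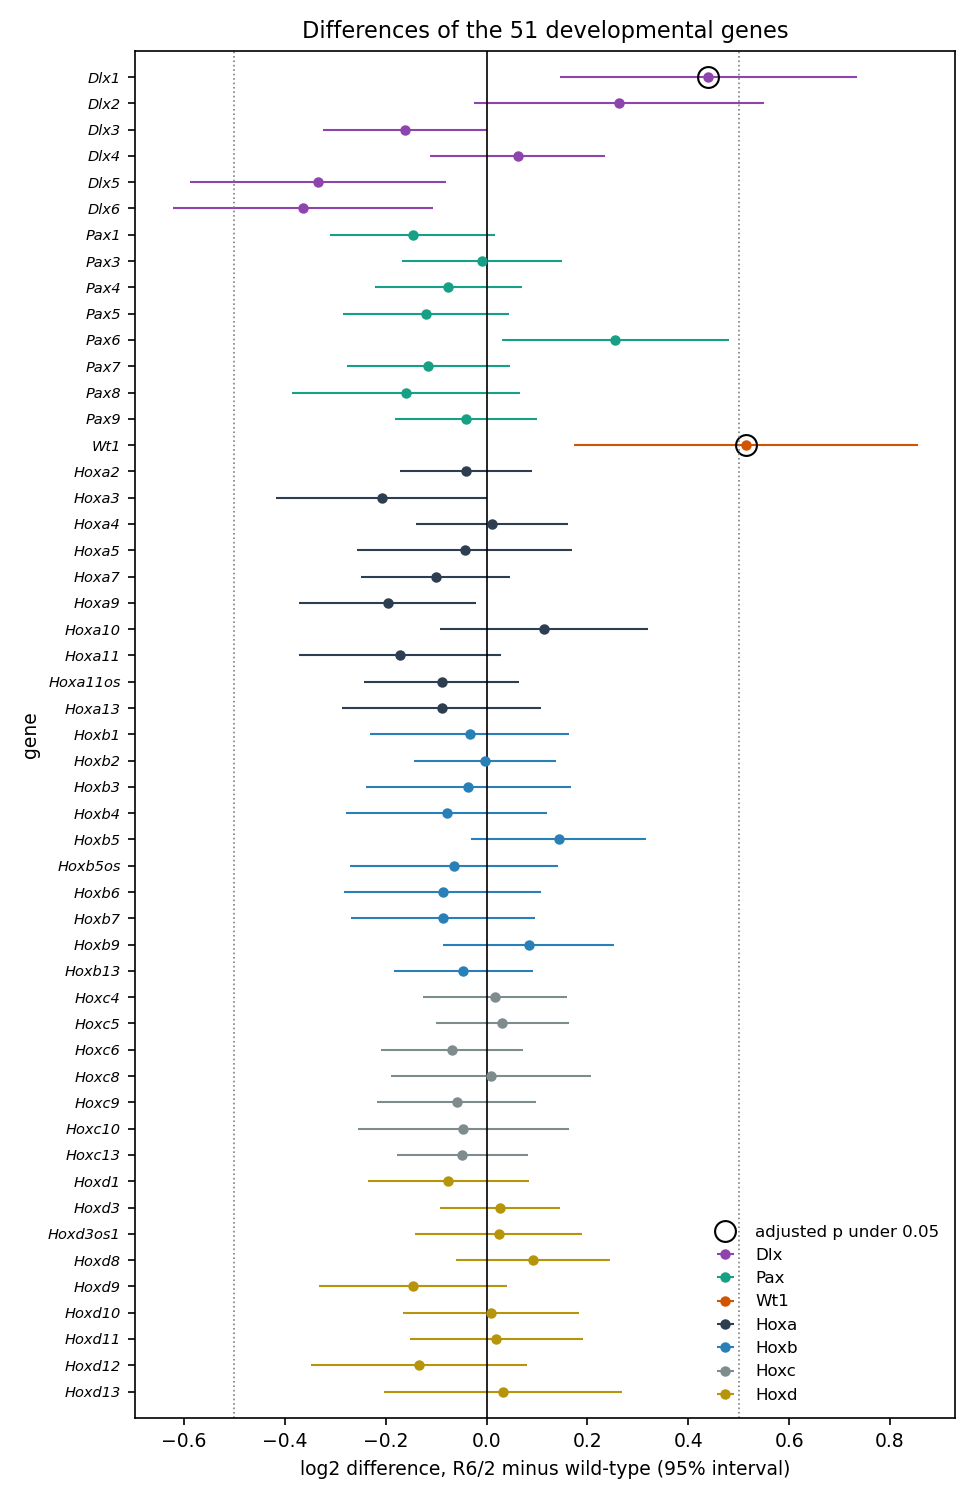
Log2 difference of R6/2 minus wild-type with its 95% interval (horizontal axis) for each of the 51 genes, ordered by family and number, with black rings at an adjusted p under 0.05 and dotted lines at -0.5 and 0.5. The intervals of Dlx1, Dlx2, Dlx5, Dlx6 and Wt1 cross a dotted line, and the rings mark Dlx1 and Wt1.

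Of the 8 Pax genes 0 passed by limma, and 1 had an unadjusted p under 0.05, Pax6. All 8 lay below the median level. Among the 9096 genes there 7.35% passed and 1739 had an unadjusted p under 0.05. Pax6, which patterns dorsal forebrain and eye and is kept in some adult neurons and olfactory neuroblasts, read 5.85, 6.00, 5.69, 6.02 and 6.15 in the R6/2 mice, against 5.53, 5.82, 5.82 and 5.58 in the wild-type mice. Mouse R62_105 lay between the wild-type mice, and the other 4 lay above them. The difference was 0.26 ± 0.10 (SE, adjusted p 0.116, limma), the only positive one of the family. Its other 4 probe sets, all dimmer, gave 0.02, -0.07, 0.07 and -0.16, and the mean of the 5 gave 0.02.

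The other Pax genes gave differences of -0.16 to -0.01. Pax8, of thyroid and kidney, gave -0.16 ± 0.10 (SE, adjusted p 0.321, limma), and all 5 R6/2 mice lay below the wild-type mean. Pax1 of the sclerotome gave -0.15 (adjusted p 0.207) and passed without mouse R62_95 (-0.20, adjusted p 0.0456). Pax5 of B cells gave -0.12 (adjusted p 0.304), Pax7 of muscle satellite cells -0.12 (adjusted p 0.319) and Pax4 of the pancreas -0.08 (adjusted p 0.472). Pax9 gave -0.04 (adjusted p 0.706) and Pax3 of the neural crest -0.01 (adjusted p 0.947). Their levels over all arrays were 3.62 to 5.28, and Pax9 alone of these 7 lay above the brightest olfactory receptor gene. Small negative values were common among dim genes, with a median of -0.05 over the 9096 genes below the median level.

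The 51 genes have 82 probe sets, 29 genes with 1 and 22 with more. The 31 probe sets that were not the brightest had differences of -0.22 to 0.10. When every probe set was tested on its own with limma, 0 of the 82 passed. In that test, over 34945 probe sets, Dlx1 (adjusted p 0.0626) and Wt1 (adjusted p 0.0607) did not pass.

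Partners and regulators of these factors were read from lists of other genes. Of 14 measured Hox cofactors and cluster neighbours 2 fell and 0 rose, with a median of -0.06. Among all genes 7.57% fell and 9.28% rose. Meis2, a homeodomain cofactor that is bright in striatum, fell to 10.54 ± 0.25 in R6/2 mice (SD, n = 5), against 11.12 ± 0.26 in wild-type mice (SD, n = 4; adjusted p 0.0216, limma). Pbx4, a related cofactor, averaged 4.06 ± 0.13 in R6/2 mice and 4.42 ± 0.09 in wild-type mice (SD, n = 5 and 4, adjusted p 0.0118, limma). Its level lay within the range of the olfactory receptor genes. Of 17 partners of Pax factors and dorsal regulators 2 rose and 2 fell, counts near those shares, with a median of -0.03. Paxip1, a protein named for binding Pax factors, rose by 0.38 ± 0.07 (SE, adjusted p 0.00658, limma), as did Dach2 (0.36, adjusted p 0.0113). Paxip1 averaged 7.88 over all arrays, while Dach2, at 4.26, lay within the olfactory receptor range. The corepressor Dach1 fell by 0.97 (adjusted p 0.00497), as did the glial factor Sox9, by 0.53 (adjusted p 0.0238).

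Of 21 measured Polycomb and Trithorax genes 3 rose and 0 fell, with a median of 0.16. All but 5 of the 21 lay above the median level, where 15.7% of all genes were higher, so a few calls are usual for such a list. Eed, a core subunit of Polycomb repressive complex 2, averaged 8.22 ± 0.06 in R6/2 mice and 7.83 ± 0.14 in wild-type mice (SD, n = 5 and 4). The groups did not overlap, and the difference was 0.39 ± 0.07 (SE, adjusted p 0.00582, limma). Bmi1, of Polycomb repressive complex 1, rose by 0.41 ± 0.08 (SE, adjusted p 0.00885, limma). Sfmbt2 rose as well, by 1.54 ± 0.18 (SE, adjusted p 0.000445, limma), and its groups did not overlap. Eed and Bmi1 lay above the median level. Sfmbt2, at 5.57 over all arrays, lay below it, where 2.86% of genes were higher. Ezh2, the methyltransferase of Polycomb repressive complex 2, gave -0.20 (adjusted p 0.403) and Suz12 0.18 (adjusted p 0.0875). Of 27 other homeobox genes of embryonic tissues 1 fell, Gbx1 by 0.36 (adjusted p 0.0257, limma), and 0 rose, with a median of -0.04. Of these 27 genes 26 lay below the median level, as did all 36 Hox and 8 Pax entries. Among all genes below that level 4.5% fell and 2.86% rose. Gbx1, at 4.59 over all arrays, lay within the range of the olfactory receptor genes.

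**Figure D4:**
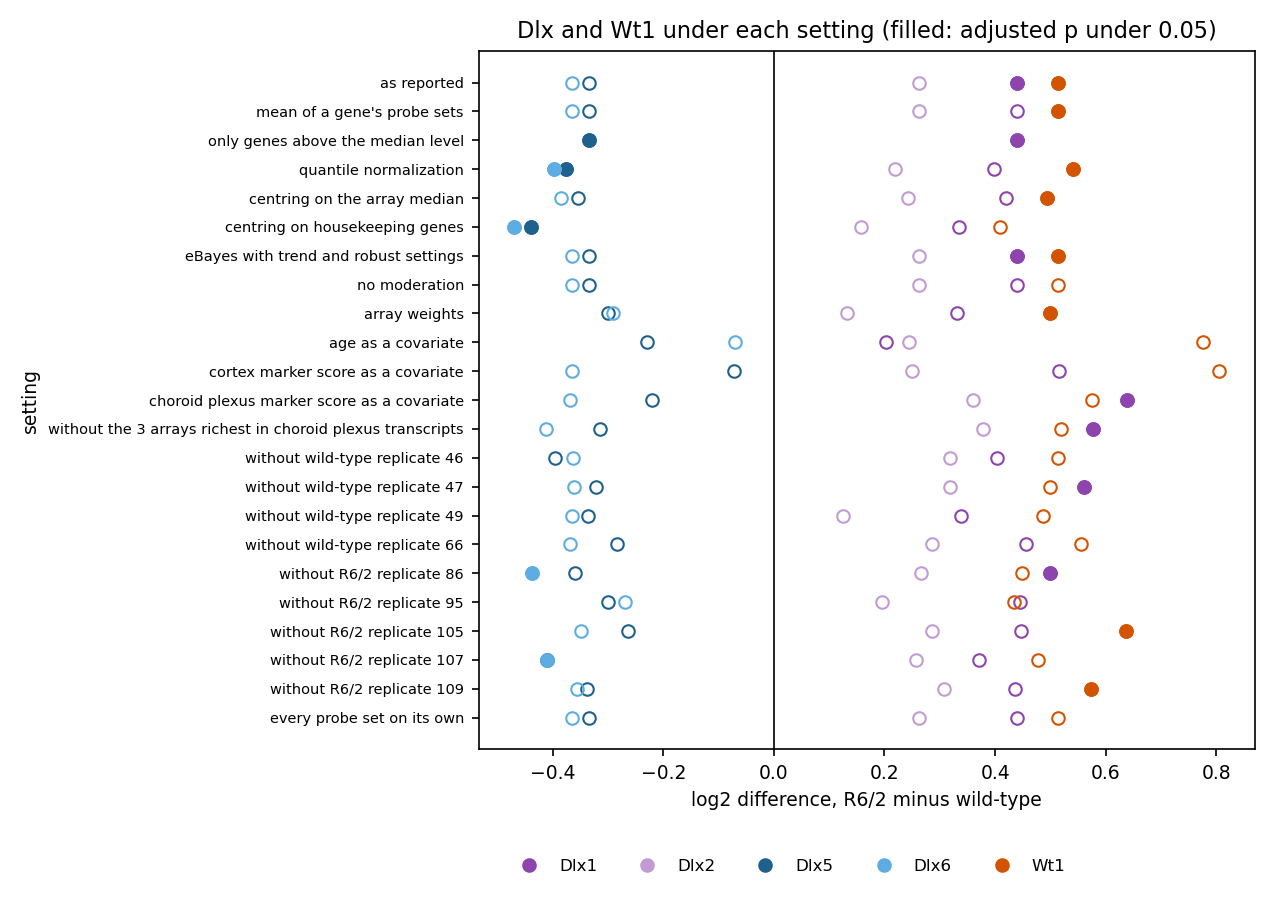
Log2 difference of R6/2 minus wild-type (horizontal axis) for Dlx1, Dlx2, Dlx5, Dlx6 and Wt1 under each setting (vertical axis), filled where the adjusted p is under 0.05. The 5 genes stay on their side of 0 in each setting shown, while the filled points come and go from setting to setting.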

How the data were processed

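Striatal RNA of 5 R6/2 and 4 wild-type mice was hybridised to 1 Affymetrix array each after in vitro transcription labelling (labels' protocols). The deposited values are log2 expression of 45101 probe sets, normalized by the authors; the submitters' processing notes name RMA and affy, with versions and the set of arrays normalized jointly not given in the sources used here. RMA puts the arrays on a common scale, so differences are relative to the other genes; the deposited array medians still ran from 5.37 to 5.45. Of 35890 annotated probe sets, 34945 named 1 gene. The brightest probe set of each of 18193 genes was fitted with limma 3.58.1 (lmFit, eBayes, two-sided) in R 4.3.3. Its single term was genotype, no filter was applied, and p-values were adjusted by Benjamini and Hochberg's method across those genes. Of the members' probe sets, 3 that name several genes were left out.

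Members given in full were those that changed, all Dlx and Pax genes, Wt1, the 5 brightest Hox entries and the 2 most extreme Hox differences each way; from other lists, up to 3 changed genes each way, with Ezh2, Suz12 and Mki67 added after their values were seen. The members and lists were chosen with earlier results of these data known. The labels do not say whether mice came from separate litters. The fit was tested on simulated data. The number of arrays limits the precision. Alternatives were other probe set rules, normalizations, variance models, covariates, left-out arrays and a stricter threshold.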

Additional observations from a re-analysis of the deposited data

Results flagged for a closer look

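In 13 of 102 groups of mice, 1 mouse stood apart from the rest of its genotype (Dixon's gap ratio, which flags about 1 in 20 groups by chance). Mouse wildtype_49 gave 6 of the 13. It was high for Hoxa5 (6.53, others 6.06 to 6.12), Hoxa9 (6.16, others 5.92 to 5.96) and Hoxd9 (4.93, others 4.74 to 4.76). It was low for Dlx2 (5.88, others 6.36 to 6.46), Hoxb9 (3.33, others 3.59 to 3.60) and Hoxc5 (3.91, others 4.06 to 4.07). Among the R6/2 mice, mouse R62_86 was low for Dlx3 (4.44) and Hoxc13 (3.79), mouse R62_95 for Hoxb2 (3.92) and Hoxb5os (5.22), and mouse R62_109 for Hoxa13 (3.67, others 4.06 to 4.10). Mouse wildtype_47 was high for Hoxc13 (4.01, others at 3.94) and mouse wildtype_66 low for Hoxd3os1 (3.23, others at 3.43). For Hoxc13 in wild-type mice the other values were equal, which makes any gap stand out. Some of the other values were also equal for Hoxa13, Hoxb5os and Hoxc13 in R6/2 mice. The same held for Dlx2, Hoxb9, Hoxc5 and Hoxd3os1 in wild-type mice. The rate of 1 in 20 need not hold for groups with equal values.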

How the results depend on the processing

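The count of 2 higher and 0 lower members depended on the setting, since Dlx1 and Wt1 lay just inside the threshold and Dlx5 and Dlx6 just outside it. The higher count was 1 with a gene's probe sets averaged, among genes above the median level, after quantile normalization, after median centring, with array weights, with the choroid plexus score as a covariate and without the 3 arrays richest in those transcripts. It was 0 with housekeeping centring, without moderation, with age or the cortex score as a covariate, with every probe set on its own and at an adjusted p under 0.01. The lower count was 5 with housekeeping centring (Dlx3, Dlx5, Dlx6, Hoxa3 and Hoxa9), 2 after quantile normalization (Dlx5 and Dlx6), and 1 among genes above the median level (Dlx5) and with the choroid plexus score (Hoxa3). Leaving out 1 mouse at a time gave 0 to 1 higher and 0 to 2 lower. Housekeeping centring gave all genes a median difference of -0.12, against -0.02 as reported, and the members -0.15. The share of higher among all calls was 21.6% there, against 55.1% as reported and 47.9% to 49.6% after the other scalings. The number of changed genes, 3066 as reported, was 2006 without moderation, 1935 with the choroid plexus score, 1257 at an adjusted p under 0.01, 882 without those 3 arrays, 330 with the cortex score and 30 with age, and 2183 to 2984 with 1 mouse left out.

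Of the 23 members described in full, 8 changed sign in some setting, and none of these values passed the test. Pax3 (-0.01 as reported) was 0.00977 with its probe sets averaged, 0.0158 after quantile normalization and -0.0477 to 0.0239 with 1 mouse left out. Hoxa5 was 0.0346 with array weights and -0.0874 to 0.0693 with 1 mouse left out, the highest without mouse wildtype_49. Hoxb5os was 0.0314 with the choroid plexus score and 0.0407 without those 3 arrays. Pax9 was 0.00680 with the cortex score and 0.0104 with the choroid plexus score, and with the cortex score Pax8 was 0.0143 and Hoxb5 -0.0135. Hoxa10 was -0.00279 with its probe sets averaged, and Dlx4 -0.0437 with housekeeping centring. The cause was not tested. No paired analysis was possible because the animal numbers of the genotypes are not shared.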

Other observations

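Dim members often had the very same value in several arrays. Hoxd3 read 3.43 in 6 of the 9 arrays, equal to 6 decimals, among them all 4 wild-type arrays, and Hoxc13 read 3.94 in 5. A value shared by 3 or more arrays occurred in 15 of the 51 members, in 29.3% of all genes at or below the median level and in 4.99% of genes above it. The SD of such genes within a genotype can be close to 0 without showing that the mice were alike. Dlx6, whose 4 wild-type values spanned 6.19 to 6.21, had no value shared by 2 arrays.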
